A study of Danio rerio with 16 samples.

Results

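The genes described here are 10 photoreceptor genes of the zebrafish: the 7 visual opsins opn1sw1, opn1sw2, opn1mw1, opn1mw2, opn1lw1, opn1lw2 and rho, the cone arrestin gene arr3a, and the guanylate cyclase activator genes guca1a and guca1c. They were chosen by symbol, with earlier results of these data known, so the shares of all genes set beside theirs serve for scale only. All 10 were found among the 31452 genes of the count tables, and all 10 were among the 21650 genes that passed a filter on low counts and were tested.

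Visual opsins are the light receptors of rods and cones. Light-activated opsin acts through the G protein transducin and a phosphodiesterase to lower cyclic GMP, which closes cyclic-nucleotide-gated channels in the outer segment. Arrestin binds the activated opsin and ends its signal, and guanylate cyclase activating proteins sense the fall in calcium and make the cyclase restore cyclic GMP. Each opsin also marks a photoreceptor type: opn1sw1 the ultraviolet cones, opn1sw2 the blue cones, the opn1mw genes the green cones, the opn1lw genes the red cones and rho the rods. The opn1mw genes lie in a tandem array on chromosome 6, and opn1sw2, opn1lw1 and opn1lw2 are neighbours on chromosome 11. opn1sw1 and guca1a lie on chromosome 4, rho on 8, arr3a on 10 and guca1c on 15.

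Whole ABTL zebrafish embryos were injected into the caudal aorta at 4 days post fertilization, and their RNA was sequenced. The 4 groups were insulin at 4 hours post injection (hpi), PBS at 4 hpi, insulin at 0.5 hpi and PBS at 0.5 hpi, the injected volume being 1 nl of either human recombinant insulin or PBS. Each group held 4 libraries, each from a pool of 10 embryos, so every embryo in the series was injected and none was left untreated. The light regime, the clock time of injection and whether the pools came from separate clutches are not stated in the labels, so the p-values measure the spread between these pools.

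Library totals were 6535173 to 9628705 reads. The 10 genes together took 0.324% to 0.737% of the reads, so photoreceptor transcripts were present in every library at a small share of the RNA. Markers of muscle (46570 to 70339 summed CPM of 22 genes) and liver (12246 to 19875 of 19 genes) were present in every library too, as whole embryos would hold. In such bulk samples, fewer photoreceptors and less RNA per photoreceptor cannot be told apart. A set of 4 libraries stood apart from the other 12 by less than 10 CPM (reads scaled to library size) of wdr90 and likewise of si:dkey-15h8.1: insulin replicate 1 at 4 hpi, insulin replicates 1 and 2 at 0.5 hpi, and PBS replicate 1 at 0.5 hpi. These 4 held 2895 to 4161 summed CPM of 16 red cell genes, against 1302 to 2140 in the other 12. At 0.5 hpi the PBS replicates 2 and 3 were almost the same by the number of genes that differed beyond counting error. It was 89 of 22287 genes, against 709 to 9657 genes in other pairs within a group. By the mean chi-square per gene between libraries the pair was not the closest. It had 2.735, against 2.3999 to 26.82 in the other pairs. For none of the 10 genes was a difference between the libraries of the pair detected at p under 0.05 (smallest exact binomial p 0.0537, for opn1lw2). The pair may be 1 sample, which the counts do not settle. Results for the 10 genes that rest on PBS at 0.5 hpi are therefore also given with the pair summed as 1 library where that ends a call or bears on one, and no mean is given for that group.

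**Figure D1:**
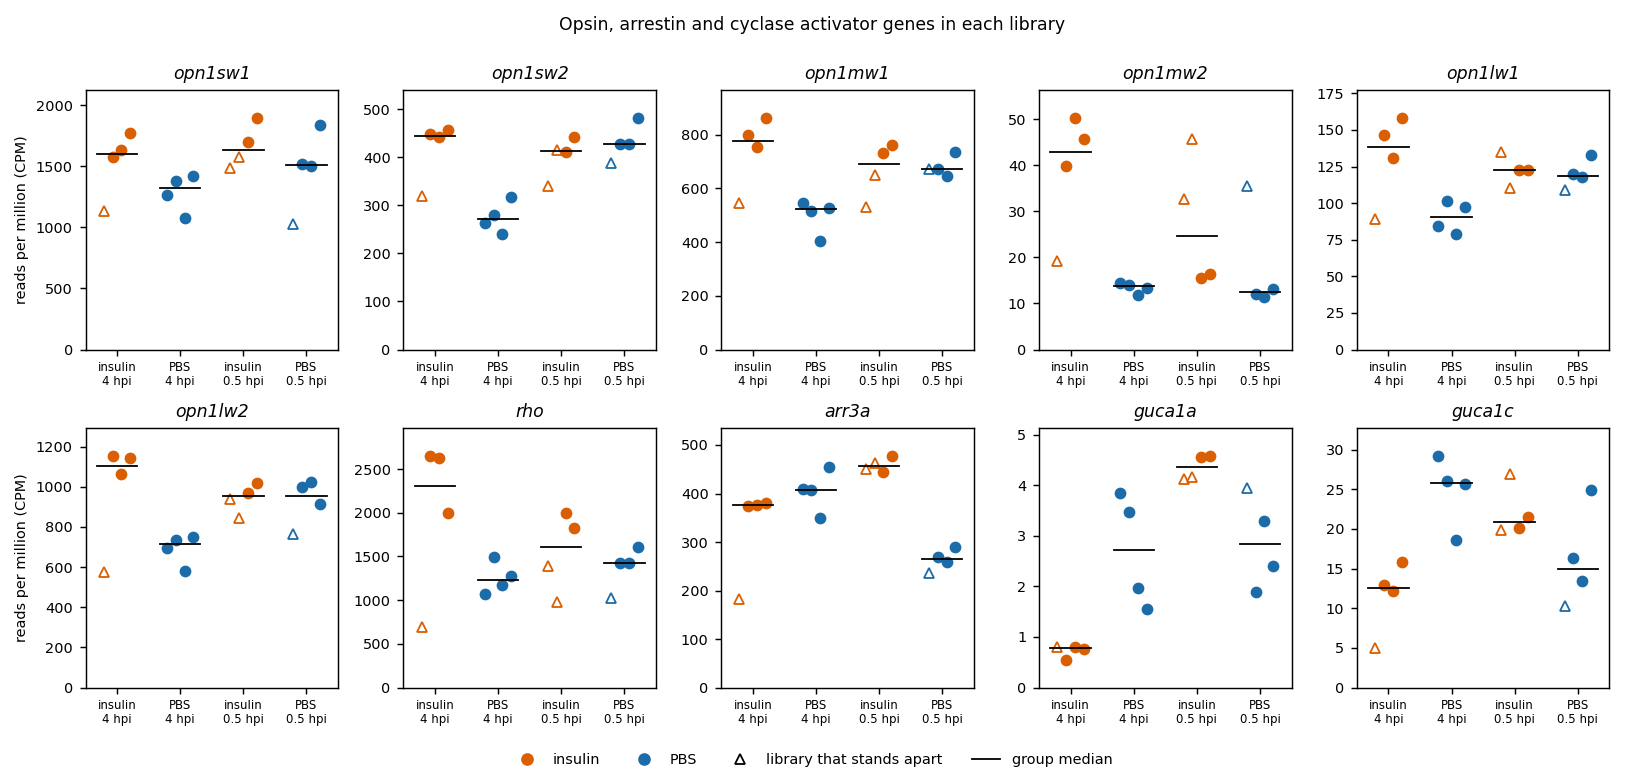
CPM of each of the 10 genes (vertical axes, starting at 0) in the 16 libraries, by group. Open triangles are the 4 libraries that stand apart, filled circles the other 12, and lines group medians; guca1a lies at 0.541 to 0.803 CPM in the 4 insulin libraries at 4 hpi, below the 4 PBS libraries of that time.

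The levels below are CPM over TMM-scaled library sizes. Since the tables give no gene length, levels are compared between groups for 1 gene. Reads of tandem opsin copies are the exception and are set side by side, without a correction for length. Changes are on the log2 scale, where 1 is a factor of 2, and their standard errors (SE) come from the edgeR quasi-likelihood fit over all 16 libraries. Adjusted p-values are Benjamini-Hochberg values from edgeR over the 21650 genes, and a gene passed below 0.05. Where insulin is set against PBS, rose and fell mean higher and lower than in PBS of the same time.

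At 4 hpi, 4 cone opsins of the blue, green and red cones and the green opsin opn1mw2, with fewer reads than opn1mw1, were higher in insulin-injected than in PBS-injected embryos. The cyclase activator genes guca1a and guca1c were lower. Of the 10 genes 7 passed, 5 higher and 2 lower, and their median change was 0.52. Among all genes tested 28.6% passed at this time, 14% higher and 14.6% lower, with a median change of 0.01. The groups did not overlap for 4 of the 10 genes, against 33.5% of all genes.

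opn1sw2, the blue cone opsin, had 319.9, 447.3, 442.3 and 455.9 CPM in insulin replicates 1 to 4 at 4 hpi, against 264.1, 280.0, 239.9 and 316.3 CPM in PBS replicates 1 to 4. Every insulin library was above every PBS library, although insulin replicate 1 exceeded PBS replicate 4 by little. The change was 0.60, a 1.51-fold higher level (SE 0.13, adjusted p = 0.00176), and 0.71 in the 12 libraries left when those standing apart are taken out (below, the 12 libraries).

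opn1mw1, the green opsin with most reads of its array, had 546.3, 798.9, 753.3 and 862.8 CPM in insulin libraries at 4 hpi and 547.6, 514.7, 402.6 and 528.9 CPM in PBS libraries. Insulin replicates 2 to 4 were above all PBS libraries, and insulin replicate 1 was just below PBS replicate 1. The change was 0.57 (SE 0.14, adjusted p = 0.00565), and 0.70 in the 12 libraries.

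opn1mw2, the next green opsin gene of the array, had 19.28, 39.91, 50.27 and 45.65 CPM in insulin libraries at 4 hpi and 14.47, 14.04, 11.86 and 13.42 CPM in PBS libraries. All insulin libraries were higher, and the lowest of them was replicate 1. The change of 1.53 (SE 0.44, adjusted p = 0.0209) was 1.76 in the 12 libraries. It did not pass without PBS replicate 3 (1.46, adjusted p = 0.0534) or without insulin replicate 3 (1.36, adjusted p = 0.0503).

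opn1lw1, the first red opsin gene, had 89.28, 146.3, 130.7 and 158.2 CPM in insulin libraries at 4 hpi and 84.17, 101.3, 78.93 and 97.39 CPM in PBS libraries, a change of 0.54 (SE 0.14, adjusted p = 0.00738). Its tandem neighbour opn1lw2 had 574.0, 1154, 1066 and 1143 CPM in insulin libraries and 696.3, 734.9, 580.8 and 748.3 CPM in PBS libraries, a change of 0.51 (SE 0.17, adjusted p = 0.0280). For both red opsins insulin replicates 2 to 4 were above all PBS libraries and insulin replicate 1 was not. Their changes in the 12 libraries were 0.69 for opn1lw1 and 0.71 for opn1lw2. Among the libraries whose header names a sequencing lane (insulin replicates 1, 3 and 4, PBS replicates 2 to 4), neither passed: opn1lw1 was at 0.42 (adjusted p = 0.102) and opn1lw2 at 0.41 (adjusted p = 0.196). The other 5 genes that passed at 4 hpi passed there as well, where 28.2% of all genes passed. The call of opn1lw2 also rested on single libraries: leaving out PBS replicate 1 or 3, or insulin replicate 2, 3 or 4, of 4 hpi ended it (0.43 to 0.50, adjusted p = 0.0714 to 0.102). Over the 29 other settings run for opn1lw2 at 4 hpi, the call was lost in 9, and these 5 fits without 1 library are only part of them.

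rho, the rod opsin, and opn1sw1, the ultraviolet cone opsin, did not pass at 4 hpi in all 16 libraries. rho had 697.9, 2650, 2623 and 1995 CPM in insulin libraries and 1075, 1493, 1178 and 1275 CPM in PBS libraries (change 0.67, SE 0.33, adjusted p = 0.140). Insulin replicate 1 was the lowest of these 8 libraries and insulin replicates 2 to 4 the highest. Without insulin replicate 1 rho passed at 0.95 (adjusted p = 0.00401), so this 1 library decided the call. opn1sw1 had 1137, 1577, 1631 and 1771 CPM in insulin libraries and 1265, 1382, 1080 and 1422 CPM in PBS libraries (change 0.25, SE 0.16, adjusted p = 0.252). In the 12 libraries opn1sw1 was at 0.37 (adjusted p = 0.00368) and rho at 0.96 (adjusted p = 5.42e-07). All 7 visual opsins passed there and 9 of the 10 genes in all, against 35.2% of all genes.

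Both cyclase activator genes were lower in insulin than in PBS at 4 hpi. guca1a, which encodes a guanylate cyclase activating protein, had 0.803, 0.541, 0.798 and 0.771 CPM in insulin libraries at 4 hpi, from 6, 5, 6 and 5 reads. In PBS libraries it had 3.85, 3.46, 1.98 and 1.54 CPM, from 29, 34, 18 and 13 reads. All insulin libraries were lower and close to each other, while the PBS libraries spread widely. The change was -1.89, a 3.70-fold lower level (SE 0.35, adjusted p = 0.000592), or -1.94 in the 12 libraries, and its precision is limited by the low counts.

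guca1c, which encodes a related activating protein found in cones, had 4.95, 12.98, 12.23 and 15.89 CPM in insulin libraries at 4 hpi and 29.21, 26.05, 18.66 and 25.65 CPM in PBS libraries. All insulin libraries were lower, replicate 1 the most. The change was -1.11 (SE 0.29, adjusted p = 0.00901), and -0.86 (adjusted p = 0.00154) in the 12 libraries. arr3a, which in zebrafish encodes the arrestin of red and green cones, had 183.5, 375.1, 375.5 and 379.9 CPM in insulin libraries and 409.8, 406.3, 349.5 and 454.9 CPM in PBS libraries. Its change of -0.30 (SE 0.16, adjusted p = 0.171) did not pass, and it was -0.10 (adjusted p = 0.390) in the 12 libraries.

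**Figure D2:**
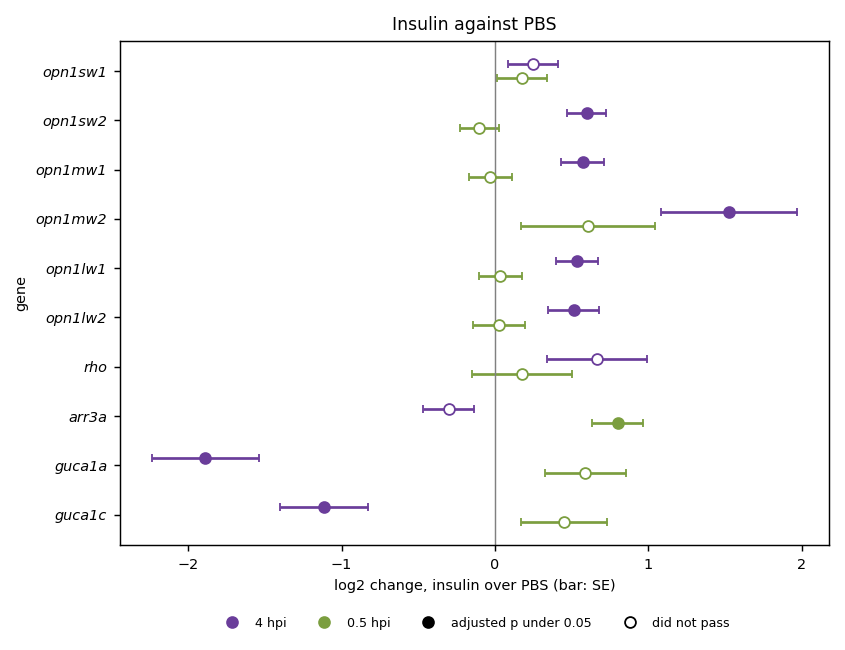
Log2 change of insulin over PBS (horizontal axis; bars are 1 SE of the fit) for the 10 genes at 4 hpi and at 0.5 hpi, filled where the adjusted p was under 0.05. At 4 hpi 5 opsins lie to the right of 0 and pass, from 0.51 to 1.53, and guca1a and guca1c lie to the left; at 0.5 hpi only arr3a passes.

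At 0.5 hpi arr3a alone passed. It had 450.9, 463.2, 444.9 and 477.5 CPM in insulin libraries, against 236.0, 268.6, 259.8 and 290.0 CPM in PBS libraries. The insulin libraries lay close together and all above the PBS libraries, those that stand apart included. The change was 0.80, a 1.74-fold higher level (SE 0.17, adjusted p = 0.0404). At this time 1 of the 10 genes passed, higher, against 0.388% of all genes (0.166% higher, 0.222% lower), and groups did not overlap for 2 of the 10, against 6.11% of all genes. The call is a close one: with the near-identical PBS pair summed the change was again 0.80 but the adjusted p was 0.144, a setting in which 0.0502% of all genes passed. In the 12 libraries, where the insulin arm holds 2 libraries, the change was 0.74 (adjusted p = 1.40e-05). With the pair summed there as well, which leaves the PBS arm with 2 libraries too, it was 0.72 (adjusted p = 0.000195). arr3a passed without PBS replicate 1 at 0.5 hpi and without insulin replicate 1 at 4 hpi, and in none of the other 14 fits that left out 1 library (0.76 to 0.83, adjusted p = 0.0513 to 0.161).

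The other gene whose groups did not overlap at 0.5 hpi was guca1a, with 4.13, 4.17, 4.55 and 4.58 CPM in insulin libraries and 3.94, 1.88, 3.28 and 2.401 CPM in PBS libraries. The change of 0.59 (SE 0.26, adjusted p = 0.343) did not pass. guca1c had 19.9, 26.9, 20.2 and 21.5 CPM in insulin libraries and 10.2, 16.4, 13.4 and 24.9 CPM in PBS libraries, with overlap at PBS replicate 4 (change 0.45, SE 0.28, adjusted p = 0.534).

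Of the 7 opsins 0 passed at 0.5 hpi by edgeR, DESeq2 or voom, and 0 had an unadjusted p under 0.05. opn1sw1 had 1483 to 1896 CPM in insulin libraries and 1028 to 1836 CPM in PBS libraries (change 0.18). opn1sw2 had 340.4 to 441.1 CPM in insulin libraries and 387.6 to 481.7 CPM in PBS libraries (change -0.10). opn1mw1 had 531.9 to 760.2 CPM in insulin libraries and 648.2 to 735.7 CPM in PBS libraries (change -0.03). For these cone opsins the spread within a group exceeded the difference between groups. opn1lw1 had 110.3 to 134.9 CPM in insulin libraries and 108.7 to 133.0 CPM in PBS libraries (change 0.04), and opn1lw2 had 847.0 to 1019 CPM in insulin and 766.7 to 1024 CPM in PBS libraries (change 0.03). rho had 973.5 to 1998 CPM in insulin libraries and 1022 to 1603 CPM in PBS libraries (change 0.18, SE 0.33). For all 6 of these genes the groups overlapped.

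opn1mw2 split at 0.5 hpi along the libraries that stand apart. It had 32.76 and 45.76 CPM in insulin replicates 1 and 2, which stand apart, and 15.63 and 16.46 CPM in insulin replicates 3 and 4. In PBS it had 35.57 CPM in replicate 1, which stands apart, and 11.95, 11.43 and 13.21 CPM in replicates 2 to 4. At 4 hpi the order was the other way round, the library that stands apart being the lowest of the insulin group. The change at 0.5 hpi was 0.61 (SE 0.44, adjusted p = 0.610).

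The effect of insulin itself was then compared between the times, as the effect at 4 hpi minus that at 0.5 hpi. It differed for 4 of the 10 genes, 1 in the positive and 3 in the negative direction, against 9.59% of all genes (3.83% and 5.76%). The difference was 0.70 for opn1sw2 (SE 0.18, adjusted p = 0.0170), -1.10 for arr3a (SE 0.23, adjusted p = 0.00575), -2.47 for guca1a (SE 0.44, adjusted p = 0.00155) and -1.56 for guca1c (SE 0.40, adjusted p = 0.0213). For arr3a, guca1a and guca1c the estimated insulin effect was positive at 0.5 hpi and negative at 4 hpi. None of these 3 passed at both times: arr3a passed at 0.5 hpi alone, and guca1a and guca1c at 4 hpi alone. With the near-identical pair summed the differences of all 4 genes passed again, with adjusted p-values from 0.00277 for guca1a to 0.0411 for guca1c. Without PBS replicate 1 at 4 hpi guca1c did not pass (-1.47, adjusted p = 0.0522). With library totals in place of TMM scaling opn1sw2 did not pass (0.60, adjusted p = 0.0557), where the median of all genes was -0.10. The difference for opn1mw1 was of like size to that of opn1sw2 but did not pass (0.60, SE 0.20, adjusted p = 0.0619), and for the other 5 opsins the adjusted p was 0.111 or more. Without insulin replicate 1 at 4 hpi opn1mw1 (0.75), opn1lw1 (0.67) and opn1lw2 (0.70) passed, with adjusted p-values of 0.00864 to 0.00991. In the 12 libraries 9 of the 10 genes passed, against 13.1% of all genes, and with the pair summed there 9 again, against 10.4%. At 0.5 hpi the insulin arm holds 2 libraries in both of these fits, and with the pair summed the PBS arm holds 2 as well.

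Between the times, the PBS groups show what changed without insulin. In PBS opn1sw2 and opn1mw1 fell and arr3a rose. Of the 10 genes 3 passed, 1 higher and 2 lower at 4 hpi, against 13.6% of all genes (7.96% higher, 5.65% lower), and 5 did not overlap, against 20.7%. opn1sw2 had 239.9 to 316.3 CPM in PBS at 4 hpi and 387.6 to 481.7 CPM in PBS at 0.5 hpi (change -0.65, SE 0.13, adjusted p = 0.00222). opn1mw1 had 402.6 to 547.6 CPM in PBS at 4 hpi and 648.2 to 735.7 CPM in PBS at 0.5 hpi (change -0.45, SE 0.14, adjusted p = 0.0383). arr3a had 349.5 to 454.9 CPM in PBS at 4 hpi and 236.0 to 290.0 CPM in PBS at 0.5 hpi (change 0.62, SE 0.17, adjusted p = 0.0168). These 3 genes did not overlap between the times.

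The red opsins opn1lw1 (-0.40, SE 0.14, adjusted p = 0.0576) and opn1lw2 (-0.42, SE 0.17, adjusted p = 0.0972) did not overlap either, all PBS libraries at 4 hpi being lower, but did not pass. With the near-identical pair summed opn1mw1 no longer passed (-0.47, adjusted p = 0.0678), and opn1sw2 (-0.65, adjusted p = 0.00760) and arr3a (0.62, adjusted p = 0.0449) did. Without 1 library the call of opn1mw1 was lost in 7 of 16 fits (-0.49 to -0.36, adjusted p = 0.0580 to 0.131), by leaving out PBS replicate 2, 3 or 4 at 0.5 hpi or any PBS replicate at 4 hpi. arr3a lost it without PBS replicate 1 at 0.5 hpi (0.56, adjusted p = 0.0565) or PBS replicate 4 at 4 hpi (0.57, adjusted p = 0.0599). Without insulin replicate 1 at 4 hpi, the red opsins passed at -0.41 (opn1lw1, adjusted p = 0.0109) and -0.43 (opn1lw2, adjusted p = 0.0110), and without PBS replicate 4 at 0.5 hpi guca1c passed at 0.90 (adjusted p = 0.0288). In the 12 libraries 6 of the 10 genes passed, against 19.5% of all genes, and with the pair summed there 6 again, against 13.2%.

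In insulin-injected embryos guca1a alone passed between the times. It had 0.541 to 0.803 CPM in insulin at 4 hpi and 4.13 to 4.58 CPM in insulin at 0.5 hpi, a change of -2.57 (SE 0.33, adjusted p = 9.29e-05). Among all genes 2.92% passed in this comparison (1.17% higher, 1.75% lower), and groups did not overlap for 3 of the 10 genes, against 10.1% of all genes. The other genes without overlap were arr3a (-0.48, SE 0.16, adjusted p = 0.128) and guca1c (-0.95, SE 0.29, adjusted p = 0.0960), both lower in all insulin libraries at 4 hpi. The changes of the visual opsins other than opn1mw2 were between -0.12 and 0.37 and did not pass. Of those higher in insulin than in PBS at 4 hpi, opn1sw2, opn1mw1, opn1lw1 and opn1lw2 were at 0.05, 0.15, 0.10 and 0.06 here. In PBS between the times these opsins were at -0.65, -0.45, -0.40 and -0.42, where only opn1sw2 and opn1mw1 passed. opn1mw2 was at 0.49 in all libraries and at 1.51 (adjusted p = 2.11e-08) in the 12 libraries, where insulin replicates 3 and 4 alone make up the arm at 0.5 hpi. The comparison of insulin with PBS at 4 hpi and that of PBS between the times share the PBS libraries at 4 hpi, and the groups at 0.5 hpi are shared in the same way, so these comparisons are not independent of each other.

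**Figure D3:**
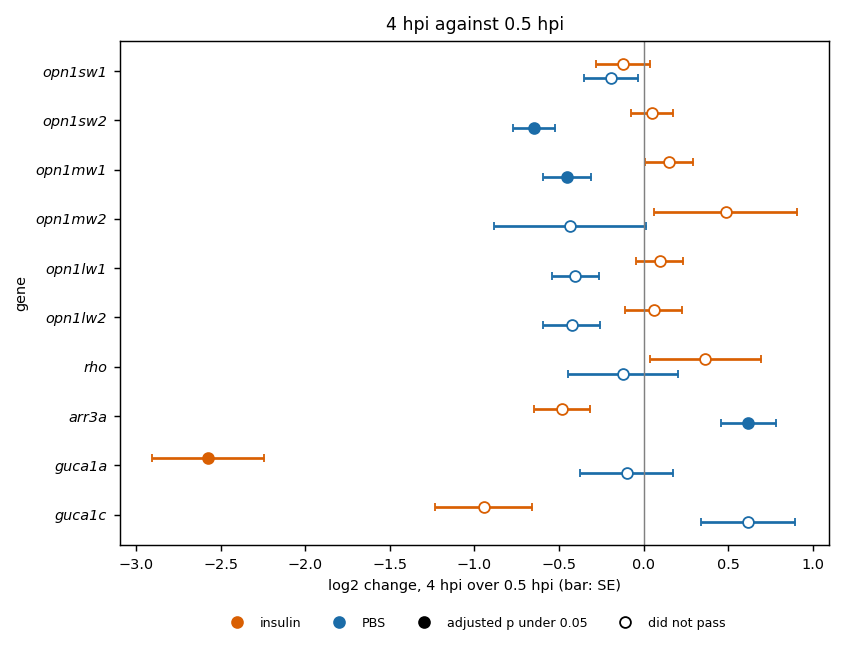
Log2 change of 4 hpi over 0.5 hpi (horizontal axis; bars are 1 SE of the fit) for the 10 genes in insulin-injected and in PBS-injected embryos, filled where the adjusted p was under 0.05. In PBS opn1sw2 and opn1mw1 pass to the left of 0 and arr3a to the right, at -0.65, -0.45 and 0.62; in insulin only guca1a passes, at -2.57.

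opn1mw1 and opn1mw2, like opn1lw1 and opn1lw2, are close copies of each other, and how the authors' counting treated reads that fit both copies is not stated. Levels of single copies are therefore uncertain. The share of opn1mw2 among the reads of opn1mw1 and opn1mw2 does not depend on the scaling between libraries and was examined after the values had been seen. It was 3.41%, 4.76%, 6.26% and 5.03% in insulin replicates 1 to 4 at 4 hpi and 2.57%, 2.66%, 2.86% and 2.47% in PBS replicates 1 to 4. All insulin libraries were higher, at 4.86% ± 1.17 for insulin and 2.64% ± 0.164 for PBS (SD, n = 4 each). The exact two-sided permutation p was 0.0286, the smallest that 4 against 4 libraries can give, and 0.229 adjusted over 8 such comparisons.

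At 0.5 hpi the share was 5.80%, 6.59%, 2.095% and 2.12% in insulin libraries and 5.02%, 1.75%, 1.73% and 1.76% in PBS libraries (exact permutation p = 0.171; 0.400 with the near-identical pair summed, 4 libraries against 3). The 3 high values were those of the libraries that stand apart. The share of opn1lw1 among the reads of both red opsins was 11.9% ± 1.14 in insulin and 11.6% ± 0.599 in PBS at 4 hpi (SD, n = 4 each; exact permutation p = 0.629). Summed over each array, the 4 opn1mw genes changed by 0.61 (SE 0.14, adjusted p = 0.00347) and the opn1lw genes by 0.52 (SE 0.16, adjusted p = 0.0242) at 4 hpi, so both arrays passed as a whole. The array's other copies had few counted reads: opn1mw3 had 0 to 7 reads per library, and opn1mw4 had 0 reads in all 16 libraries, which allows up to 0.0229 CPM at 3 reads over all libraries, for counting error only. How reads that fit several copies were counted is not stated, so these values need not show low levels of either gene.

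**Figure D4:**
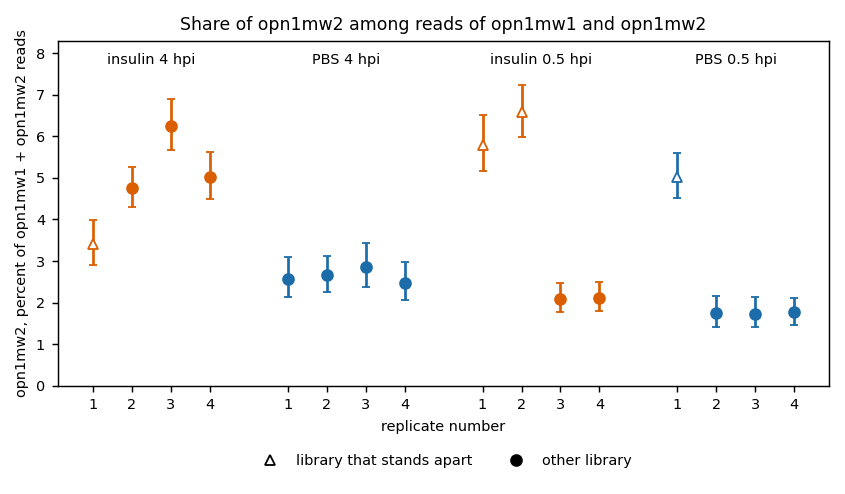
Share of opn1mw2 among the reads of opn1mw1 and opn1mw2 (percent, vertical axis from 0) in each of the 16 libraries, by group and replicate number. Bars are 95% Wilson intervals for counting error only and open triangles the libraries that stand apart; at 4 hpi insulin libraries lie at 3.41% to 6.26% and PBS libraries at 2.47% to 2.86%.

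Across libraries within a group, after each group's mean was taken off, most of the 10 genes moved together (Pearson r over 16 libraries). The libraries differed in depth and in tissue marker sums such as those of red cells. The part of such differences in the correlations was not tested. Values of r were 0.87 for the pair opn1sw1 and opn1sw2, 0.88 for opn1lw1 and opn1lw2, 0.93 for arr3a and opn1lw2, and 0.88 for arr3a and guca1c. Over the 12 libraries these values were 0.87, 0.72, 0.81 and 0.76, but the means taken off were still those of all libraries of a group. The libraries that stand apart thus still enter the values over 12 libraries, those for rho below included. opn1mw2, at 0.12 with opn1mw1, and guca1a, at -0.18 with guca1c, did not. For rho the correlations, with the same means taken off, were lower over the 12 libraries: 0.71 over 16 libraries and 0.36 over 12 with opn1sw1, 0.66 and 0.35 with opn1mw1, 0.88 and 0.52 with opn1lw2, and 0.64 and 0.23 with guca1c. The genes outside the set most like its mean standardised level over the 16 libraries included transduction genes: grk7a, a cone opsin kinase gene (r 0.90), gnb3b, a cone transducin subunit gene (0.89), grk1b, a further opsin kinase gene (0.88), and rcvrna, a recoverin gene (0.86). The other 4 of the first 8 were CKMT2 (2 of 2), BX119910.13, NFX1 and hmga1b, at 0.86 to 0.93.

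Other genes of the light response were followed in lists. Of 43 other cone and rod transduction genes 1 rose and 3 fell in insulin at 4 hpi, 9.30% in all against 28.6% of all genes, with a median of 0.04. cnga3b, which encodes a cone channel subunit, averaged 4.27 ± 0.914 CPM in insulin and 11.9 ± 1.95 CPM in PBS (SD, n = 4 each; change -1.46, adjusted p = 0.000159). cngb1a, a rod channel subunit gene, averaged 6.31 ± 2.04 CPM in insulin and 13.7 ± 2.56 CPM in PBS (-1.13, adjusted p = 0.00355). The cone opsin kinase gene grk7b averaged 5.19 ± 1.04 CPM in insulin and 2.78 ± 0.586 CPM in PBS and rose (0.89, adjusted p = 0.00419). The last of the 3 that fell, guca1e, a further cyclase activator gene and named after its value was seen, was at -0.82 (adjusted p = 0.0348), and the exchanger gene slc24a2 was at -0.55 and did not pass (adjusted p = 0.0903). A further fit on the 12 libraries had 12 of the 43 rise and 5 fall, with a median of 0.18. In that fit 35.2% of all genes passed in either direction, so the count is near that share. At 0.5 hpi 0 of the 43 passed by edgeR, 7 had an unadjusted p under 0.05, and DESeq2 called 1 and voom 0. In PBS between the times 5 were higher and 1 lower at 4 hpi, and with the near-identical pair summed 3 were higher and 0 lower. cnga3b was at 0.92 (adjusted p = 0.00978) and cngb1a at 1.104 (adjusted p = 0.00794), and both passed with the pair summed (adjusted p = 0.0289 and 0.0187).

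Of 28 genes listed for the visual cycle, 5 rose and 0 fell at 4 hpi, with a median of 0.16. The list also holds general retinoid genes, so not all its products regenerate the chromophore of opsins. The 17.9% of the list that were higher are near the 14% of all genes that were higher. In the 12 libraries 10 of the 28 rose and 0 fell, with a median of 0.18, where 35.2% of all genes passed in either direction. lrata, which encodes a retinol-esterifying enzyme, averaged 6.32 ± 3.92 CPM in insulin and 0.736 ± 0.227 CPM in PBS (SD, n = 4 each; 3.06, adjusted p = 0.000135). retsat, a retinol saturase gene, was at 0.52 (adjusted p = 0.00173), and rlbp1b, a retinaldehyde-binding protein gene, did not pass at 0.37 (adjusted p = 0.121). Of 20 tested non-visual and other opsins 1 rose and 1 fell, 10% in all, with a median of -0.06: rgrb, a retinal G protein-coupled receptor gene, had 33.3 to 35.3 CPM in insulin and 16.1 to 22.4 CPM in PBS (0.79, adjusted p = 6.06e-05), and opn3 was at -0.82 (adjusted p = 0.0358). rgra, the paralog of rgrb, was at 0.07 (adjusted p = 0.747).

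Of 33 photoreceptor transcription factor genes 3 rose and 6 fell at 4 hpi, with a median of -0.09. The 27.3% that passed are near the 28.6% of all genes. Those with the smallest p were samd7 (-1.69, adjusted p = 0.000736), rorab (-0.70, adjusted p = 0.00117) and samd11 (0.63, adjusted p = 0.00315). six7, which in zebrafish is required for green opsin expression and was named after its value was seen, was at -1.18 (adjusted p = 0.0177). Of 35 outer segment and synapse genes 0 rose and 5 fell, with a median of -0.18. The 14.3% that fell are near the 14.6% of all genes that were lower. Among them were tulp1a (-1.12, adjusted p = 0.00131), crb2b (-1.03, adjusted p = 0.00172) and prom1a (-0.60, adjusted p = 0.0245). Of these 35, 8 rose and 6 fell in the 12 libraries, with a median of -0.01. The count is near the 35.2% of all genes that passed in either direction there.

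**Figure D5:**
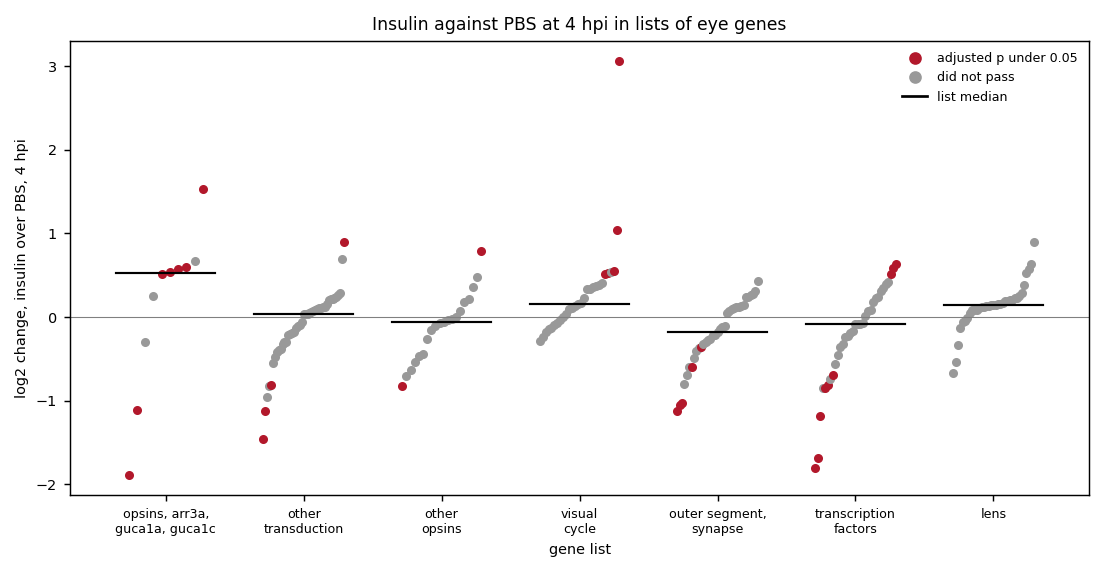
Log2 change of insulin over PBS at 4 hpi (vertical axis) for the 10 genes and for 6 lists of other eye genes, each point 1 gene, red where the adjusted p was under 0.05, with list medians as lines. The 10 genes have a median of 0.52, the outer segment and synapse genes -0.18 and the lens genes 0.14.

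Genes listed for the lens, other retinal cells, pigment cells and the pineal were read for the same comparison. Of 35 lens genes 0 passed at 4 hpi by edgeR, by DESeq2 and by voom, 0 had an unadjusted p under 0.05, and their summed level was 4529 to 8293 CPM in insulin and 4815 to 5763 CPM in PBS. In the 12 libraries 3 of the 35 rose and 0 fell, with a median of 0.27, where 35.2% of all genes passed in either direction. At 0.5 hpi the lens median was -0.57, with 0 passing by edgeR (also with the near-identical pair summed) and voom, 4 by DESeq2 and 18 at an unadjusted p under 0.05. Of 38 genes listed for the other retinal neurons and Muller cells 1 rose and 1 fell at 4 hpi (aqp1a.1 at 0.41 and glula at -0.82), with a median of -0.02. In the 12 libraries 11 of the 38 rose and 7 fell, with a median of 0.14, where 35.2% of all genes passed in either direction. The RNA is of whole embryos, so reads of these genes need not come from the retina. Their sums were 4413 to 4714 CPM in insulin and 4884 to 5118 CPM in PBS. Within these sums glula alone averaged 445.4 CPM in insulin and 785.8 CPM in PBS. Of 16 genes of the pigment epithelium and pigment cells 4 rose (25%, against 14% of all genes) and 0 fell, with a median of 0.02. Those that rose included sfrp5 (0.88) and trpm1b (0.65). In the 12 libraries 5 of the 16 rose and 3 fell, with a median of -0.095, where 35.2% of all genes passed in either direction. Of 11 genes listed for the pineal 1 rose and 2 fell (tph1b at -0.83 and bhlhe40 at -0.93), 27.3% in all, near the 28.6% of all genes. In the 12 libraries 3 of the 11 rose and 3 fell, where 35.2% of all genes passed in either direction. bhlhe40 is also in the list of light and clock genes below, and averaged 125.9 CPM in insulin and 240.8 CPM in PBS. With bhlhe40 included, the pineal sums were 296.0 to 593.4 CPM in insulin and 600.8 to 679.7 CPM in PBS. The lowest sum was that of insulin replicate 1, which stands apart, and the 12 libraries that do not had at least 535.0 CPM. The part of the pineal, which also holds photoreceptors, in the values of the 10 genes was not tested.

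Light and clock genes fell at the same time. Of 29 such genes, many of them also driven by light or by the time of day, 1 rose and 25 fell (86.2%, against 14.6% of all genes) at 4 hpi, with a median of -1.23. per1b had 52.3 to 60.3 CPM in insulin and 216.7 to 236.0 CPM in PBS (-1.999, adjusted p = 3.75e-11), and cry1b had 14.1 to 15.9 CPM in insulin and 64.4 to 76.6 CPM in PBS (-2.23, adjusted p = 1.54e-10). At 0.5 hpi 3 of the 29 rose (10.3%, against 0.166% of all genes), and 1 with the near-identical pair summed, where 0.0502% of all genes passed in either direction. The light exposure and sampling hour of the groups are not stated, and their part in the values of the 10 genes was not tested.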

How the data were processed

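Whole-embryo RNA was sequenced in 16 libraries, 4 in each of 4 groups. The authors deposited 1 table of raw read counts per library, with 31452 genes, of which 31181 carry a symbol. Reads were processed on the Zv9 build, per the submitters' processing notes; the aligner, the counter, the annotation and the strandedness of the counts are not given. The size factor line that ends each table was left out.

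Members were matched by symbol, and other lists by symbol with a table of gene IDs and names. The members and lists were chosen with earlier results of these data known. Genes were filtered with filterByExpr, scaled with TMM, and fitted with glmQLFit (robust) and glmQLFTest of edgeR 4.0.16 in R 4.3.3, with the 4 groups as levels (12 residual degrees of freedom), two-sided, on contrasts of insulin against PBS at each time, the difference of those effects, and 4 against 0.5 hpi within each treatment. Alternatives used DESeq2 1.42.0, limma 3.58.1 and other filters, scalings, samples and blocks, 30 settings in all. The text names every member, and from each list at most 2 to 4 genes with the smallest p in insulin against PBS at either time, averaging at least 2 CPM. Other genes were named after their values were seen. Genes most like the members were the 8 with the highest correlation of log2 CPM (prior count 2). Neighbouring genes came from a RefSeq table of another build, in which 9 of the 10 members matched, so no coordinates are given. The fit was tested on simulated data. Library totals were 6535173 to 9628705 reads, and read counts set the precision, at 5 to 39 reads for guca1a.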

Additional observations from a re-analysis of the deposited data

Results flagged for a closer look

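In 5 of the 40 groups of 4 libraries (10 genes in 4 groups) 1 library lay far from the other 3, by a gap that took up most of the group's range (Dixon's 95% limit), which chance gives in about 1 of 20 groups. Insulin replicate 1 at 4 hpi was the low one for opn1sw2 (320 CPM), opn1lw2 (574 CPM) and arr3a (184 CPM). It is 1 of the 4 libraries that stand apart. PBS replicate 1 at 0.5 hpi, also 1 of the 4, was the high one for opn1mw2 (35.6 CPM). Insulin replicate 2 at 4 hpi was the low one for guca1a (0.541 CPM, from 5 reads, where the other 3 had 5 or 6).

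The insulin effect at 4 hpi differed from that at 0.5 hpi, in the test of the difference itself, for opn1sw2 (0.70), arr3a (-1.10), guca1a (-2.47) and guca1c (-1.56).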

How the results depend on the processing

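The 16 changes of single genes that passed were refitted 452 times: 406 refits passed in the same direction, 46 lost the call and 0 reversed. The 34 that did not pass had 44 of 963 refits pass and 33 reverse, of which 0 passed. Of the 10 genes, 0 passed at 0.5 hpi with library totals, limma voom, only the groups compared, the near-identical pair summed or the libraries whose header names no lane, and 0 to 1 without 1 library. Of all genes 0% to 0.374% passed in those settings, and 0.0456% to 4.51% without 1 library. At 4 hpi 5 to 9 passed in every setting run (7 under most), against 20.4% to 35.5% of all genes. For the difference of the effects 9 passed in the 12 libraries and 3 to 7 without 1 library. Of all genes 13.1% and 6.66% to 13.4% passed there. In PBS between the times 5 passed with only the groups compared and with a term for the library split, 6 in the 12 libraries, 1 in the libraries with a lane (there the PBS arm at 0.5 hpi is the near-identical pair alone, which may be 1 sample) and 1 to 5 without 1 library. Of all genes 14.2%, 15.5%, 19.5% and 10.8% passed in those settings, in that order, and 7.81% to 19.3% without 1 library. In insulin between the times 2 passed with DESeq2's Wald test and in the 12 libraries, 3 with the split term and 0 with the 10 CPM filter, which leaves guca1a out. Of all genes 4.12%, 4.8%, 5.85% and 4.87% passed there, in that order.

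Values that reversed were small. In the 12 libraries opn1mw1 (0.10) and opn1lw1 (-0.027) did so at 0.5 hpi, and opn1mw2 (0.13) and guca1a (0.089) in PBS between the times. With library totals, which move the median of all genes in the difference to -0.10, opn1mw1 was at 0.0084 at 0.5 hpi and opn1sw1 at -0.017 in the difference. With the split term opn1mw1 was at 0.031 at 0.5 hpi, and opn1sw2 (-0.027) and opn1lw2 (-0.092) reversed in insulin between the times. In libraries with no lane opn1mw1 was at 0.018 and opn1lw1 at -0.027 at 0.5 hpi, and in those with a lane opn1mw2 was at 0.17 in PBS between the times, against that pair alone. Without 1 library the ranges crossed 0 at 0.5 hpi for opn1mw1 (-0.12 to 0.065), opn1lw1 (-0.033 to 0.083) and opn1lw2 (-0.078 to 0.079), in the difference for opn1sw1 (-0.030 to 0.23), in PBS between the times for opn1mw2 (-0.60 to 0.13) and guca1a (-0.28 to 0.097), and in insulin between the times for opn1sw1 (-0.20 to 0.017), opn1sw2 (-0.021 to 0.18), opn1lw1 (-0.0060 to 0.26) and opn1lw2 (-0.025 to 0.27). In the 12 libraries with the pair summed, chosen after seeing the data, 1, 9, 9, 6 and 2 genes passed (order as in the next paragraph). Of all genes 10.7%, 34.5%, 10.4%, 13.2% and 4.37% passed there, in the same order. In that fit opn1mw1 (0.082) and opn1lw1 (-0.047) at 0.5 hpi and opn1mw2 (0.12) and guca1a (0.097) in PBS between the times reversed. The causes were not tested.

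Replicate numbers did not pair the libraries by the rule that every same-numbered pair correlate in its deviations at over 0.1: the values were -0.16 to 0.25 between insulin and PBS at 0.5 hpi, -0.04 to 0.05 at 4 hpi, -0.06 to 0.04 in PBS between the times, and -0.06 to 0.20 in insulin between the times, where 3 of 4 were over 0.1. With the replicate block 1, 7, 5, 4 and 2 genes passed at 0.5 hpi, at 4 hpi, in the difference, in PBS and in insulin between the times. Of all genes 0.476%, 30%, 10.5%, 14.8% and 3.09% passed with this block, in the same order. Summing the tandem copies and refitting the lists were chosen after seeing the data. Depth limits guca1a, at 5 to 39 reads per library.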
